A study of Mus musculus with 58 samples.

Results

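Ngfr, the gene of the low-affinity neurotrophin receptor p75NTR, and 7 other genes of neurotrophic factor signaling were followed through sorted adipose stem cells of castrated, ovariectomized and control mice. The 8 genes, of 56953 in the count table, were the neurotrophin receptors Ngfr, Ntrk2 and Ntrk3, the neurotrophins Bdnf and Ntf3, and the ligand Gdnf with its receptors Gfra1 and Ret, each matched by its Ensembl mouse gene ID. Ngfr was selected on its measured levels in these libraries, which were known beforehand, so its values are given as a description with no test, and the other 7 were listed as ligands and receptors of the same signaling with earlier results of these data known.

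Inguinal white adipose tissue (iWAT), a subcutaneous fat depot, was taken from C57BL6/J mice gonadectomized at 4 weeks of age or left as controls, and all were killed at 10 weeks after a fast of 4 h. Cells negative for the leukocyte marker CD45 and the endothelial marker CD31 and positive for CD34 were sorted into a DPP4- fraction (ASC1) and a DPP4+ fraction (ASC2), and their RNA was sequenced by Smart-seq3. The 58 libraries comprised 7 of control male ASC1, 3 of ovariectomized female ASC1 and 8 of each of the other 6 groups: castrated male ASC1, control female ASC1, and the ASC2 of control male, castrated male, control female and ovariectomized female mice. The labels name the same strain for all groups and do not tie libraries to animals, so the p-values measure the spread between these libraries. Both fractions were sorted from the mice of each group, and the tests between fractions treat their libraries as independent.

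Neurotrophins are secreted growth factors first known for keeping neurons alive. They bind receptor tyrosine kinases of the Trk family (BDNF binds TrkB and neurotrophin-3 binds mainly TrkC) and also p75NTR, which has no kinase domain and signals through adaptor proteins, alone or with sortilin. GDNF binds the membrane-anchored coreceptor GFRA1, and the complex activates the kinase RET. In adipose tissue these factors are known from the growth and upkeep of its sympathetic innervation, and stromal cells are among their sources.

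The sequences upstream of Ngfr, the gene on which the description turns, and of Ntrk2 and Ntf3, which moved together in one group, are shown from the RefSeq promoter table (GRCm38.p6, a different build from the GRCm39 used for counting). Each is the 250 bases before an annotated start, 5′ to 3′ on the gene's strand, and capitals mark GGGCGG, the GC box, on either strand. The windows lie at chr11:95587699-95587948 (minus strand) for Ngfr, chr13:58806319-58806568 (plus strand) for Ntrk2, and chr6:126166745-126166994 and chr6:126164961-126165210 (minus strand) for the 2 starts of Ntf3.
Ngfr: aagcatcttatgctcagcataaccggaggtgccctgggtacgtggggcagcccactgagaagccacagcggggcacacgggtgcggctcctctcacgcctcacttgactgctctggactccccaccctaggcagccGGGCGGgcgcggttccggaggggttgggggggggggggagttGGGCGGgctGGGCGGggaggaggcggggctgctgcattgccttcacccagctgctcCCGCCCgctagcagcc
Ntrk2: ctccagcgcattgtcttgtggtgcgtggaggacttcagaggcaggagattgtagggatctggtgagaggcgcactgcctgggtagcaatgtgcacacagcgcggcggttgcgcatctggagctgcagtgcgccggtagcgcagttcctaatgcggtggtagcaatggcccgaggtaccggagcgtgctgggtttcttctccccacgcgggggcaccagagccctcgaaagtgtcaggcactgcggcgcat
Ntf3, first start: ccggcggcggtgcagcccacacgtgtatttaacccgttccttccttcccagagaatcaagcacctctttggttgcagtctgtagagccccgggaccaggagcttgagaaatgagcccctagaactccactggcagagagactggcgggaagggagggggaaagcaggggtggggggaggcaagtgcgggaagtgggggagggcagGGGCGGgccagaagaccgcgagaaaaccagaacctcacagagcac
Ntf3, second start: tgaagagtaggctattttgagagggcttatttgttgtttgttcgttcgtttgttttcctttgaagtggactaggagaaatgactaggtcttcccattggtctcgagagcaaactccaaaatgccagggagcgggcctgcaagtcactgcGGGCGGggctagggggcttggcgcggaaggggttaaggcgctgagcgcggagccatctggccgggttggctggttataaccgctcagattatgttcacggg
The Ngfr window held 4 GC boxes and 70.4% G and C, each Ntf3 window held 1 and the Ntrk2 window none, whereas 32.7% of 32841 windows of the same length held at least 1. None of the 4 windows held TATAAA (12.4% of all windows), AGGTCA, the half-site of many nuclear receptors including those for estrogen (14% of all windows), or AGAACA, the half-site of the androgen, progesterone and glucocorticoid receptors (16.1% of all windows), on either strand. A match or its lack describes these letters only. For the other 5 genes, the table held windows for Bdnf, Gdnf and Gfra1.

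Libraries held 106566 to 1421547 reads in the table (median 682424), so 1 read was worth a median of 1.46 CPM (reads scaled to the library's total over the tested genes) over all libraries and of 4.59 CPM over those of ovariectomized female ASC1. The sorted fractions were separate in Dpp4 mRNA, which stood at 0.872 to 47.3 CPM in the ASC1 libraries and at 49.2 to 489 CPM in the ASC2 libraries. The sex and depot labels were less clear. In 26 of 58 libraries, transcripts of the sex chromosomes went against the sex label (20 or more reads of Xist, the RNA of the inactive X chromosome, in a library labelled male, or 3 or more reads of 4 Y-linked genes in one labelled female), including 7 of 8 libraries of castrated male ASC1, 5 and 6 of control female ASC1 and ASC2, and, among control males, 4 of ASC1 and 4 of ASC2. Some of these libraries held both Xist and Y reads. Libraries E to H of control male ASC1 held 29 to 82 Xist and 5 to 7 Y reads. Those of control male ASC2 held 27 to 71 and 8 to 32. Libraries B, E, G and H of control female ASC2 held 25 to 55 Xist and 23 to 32 Y reads. Other libraries held mainly reads of 1 kind. Libraries B, C, D, G and H of control female ASC1 held 33 to 55 Y reads (61.6 to 79.8 CPM) and 1 to 6 Xist reads. Y reads in control male ASC1 B to D were at 50.9 to 64.7 CPM. Castrated male ASC1 libraries held 13 to 97 Xist and 0 to 4 Y reads. The study took low Y-linked counts in female controls as a sign of weak contamination with male mRNA. Whether that covers the libraries with mainly 1 kind of reads was not tested. Among control libraries, the complement gene C7, which the study treats as male-enriched, followed the sex labels instead. It stood at 122 to 1664 CPM in all control male libraries, including the 8 with 20 or more Xist reads, and at 0 to 20.8 CPM in all control female libraries, including the 11 with 3 or more Y reads. Its level was 0 to 14.4 CPM in the castrated libraries, 0 to 3.85 CPM in ovariectomized female ASC2 and 50.3 to 285 CPM in ovariectomized female ASC1. In 23 libraries there were 3 or more reads of Tcf21 and Wt1 together, transcription factors known from visceral fat and not from iWAT: 6 each of castrated male ASC1 and control female ASC1, 3 of control male ASC1, 2 each of castrated male ASC2 and control female ASC2, and 4 of ovariectomized female ASC2. These libraries are spread unevenly over the groups, so the Ngfr differences, and other differences where the call changes, are also given without them. The 3 libraries of ovariectomized female ASC1 stood apart in another way, with a summed level of 5 fibroblast genes of 44926 to 46771 CPM against 3380 to 15878 CPM in all other libraries. They also held few detected genes, at 11622 in L, 9696 in N and 9122 in P. Library L had 1114334 reads, and ovariectomized female ASC2 K had 15016 genes at 1118901 reads. Library N had 256565 reads, and ovariectomized female ASC2 N had 11479 genes at 248114 reads. In that group the 8 mammary epithelial markers were at 0, the 5 smooth muscle markers summed to 43.3 to 159 CPM and the 7 macrophage markers to 24.8 to 27.5 CPM. Other marker sums were at their highest there. The 7 markers of mural cells (pericytes and smooth muscle) summed to 180 to 257 CPM, against at most 84.1 CPM in any other group. The 5 adipocyte markers summed to 111 to 327 CPM (at most 175 CPM elsewhere) and the 7 ASC1 markers to 1691 to 2318 CPM (at most 1288 CPM elsewhere).

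Ngfr, selected on these levels, had the widest range in CPM of the 8 genes (0 to 612 CPM), and its level split within groups. It was high in castrated male ASC1 and in 4 libraries of ovariectomized female ASC2, low in most control libraries, and nearly absent from castrated male ASC2 and ovariectomized female ASC1. Reads of Ngfr were present in 51 of 58 libraries, 4830 reads in all.

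In castrated male ASC1, Ngfr ranged from 57.4 to 567 CPM with a median of 360 CPM (340 ± 194, mean ± SD, n = 8). In control male ASC1 it ranged from 0 to 48.6 CPM with a median of 32.3 CPM (24.2 ± 22.7, n = 7). The lowest castrated library was above the highest control library, so the 2 groups did not overlap.

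In castrated male ASC2, Ngfr ranged from 0 to 14.4 CPM with a median of 5.59 CPM (6.66 ± 7.19, n = 8), and 4 of the 8 libraries had no read. In control male ASC2 it ranged from 8.78 to 38.2 CPM with a median of 20.7 CPM (22.8 ± 11.2, n = 8). These 2 groups overlapped.

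In control female ASC1, 1 library stood at 249 CPM and the other 7 at 0 to 22.0 CPM (39.3 ± 85.1, n = 8). The 3 libraries of ovariectomized female ASC1 stood at 3.43, 0 and 6.19 CPM, which rest on 4 reads in all. The range of the ovariectomized libraries lay within that of the controls.

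In control female ASC2, Ngfr ranged from 3.67 to 393 CPM with a median of 27.4 CPM (101 ± 154, n = 8). In ovariectomized female ASC2 it ranged from 4.95 to 612 CPM with a median of 234 CPM (274 ± 284, n = 8). Both groups were split: the libraries labelled C and D of the control group (393 and 303 CPM) and those labelled I to L of the ovariectomized group (440 to 612 CPM) were far above the rest (3.67 to 33.7 and 4.95 to 27.5 CPM).

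By the median, the groups ranked castrated male ASC1, ovariectomized female ASC2, control male ASC1, control female ASC2, control male ASC2, control female ASC1, castrated male ASC2 and ovariectomized female ASC1, and every 2 neighbours in this order overlapped.

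**Figure D1:**
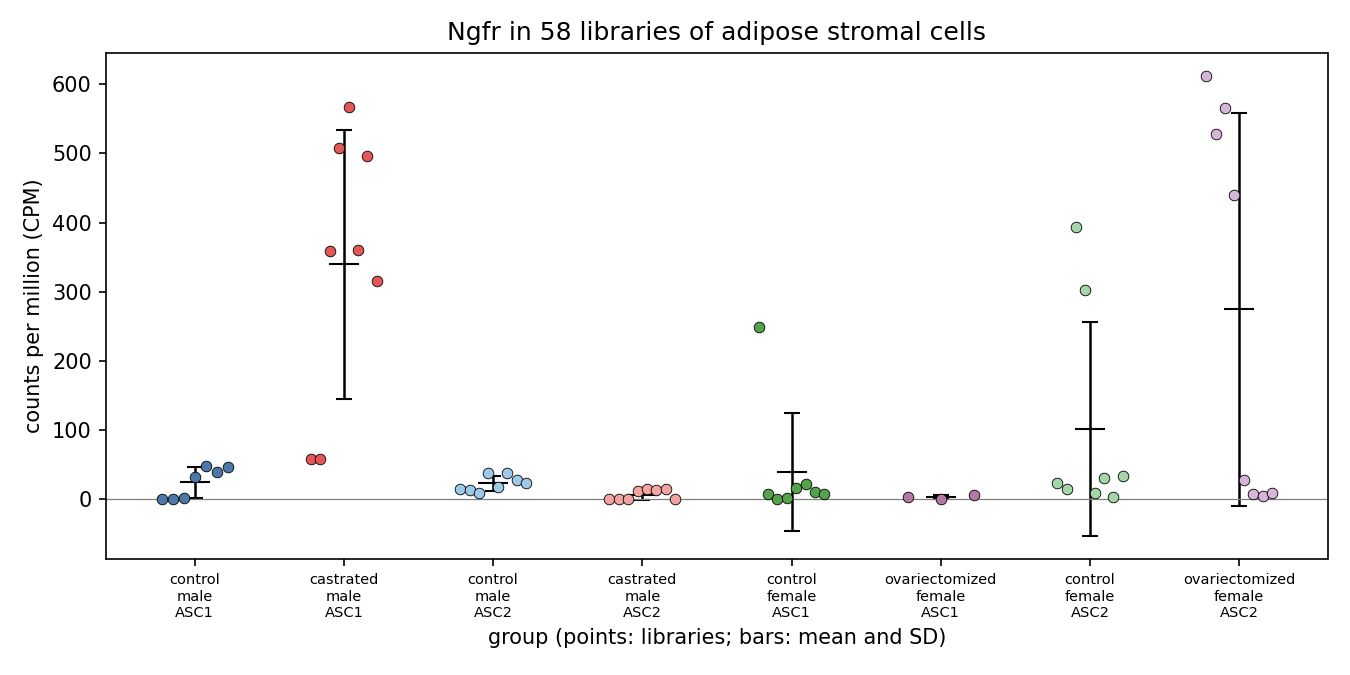
Ngfr in CPM (vertical axis, linear) in each of the 58 libraries (points) of the 8 groups (horizontal axis), with the group mean and SD as bars. The castrated male ASC1 libraries sit at 57.4 to 567 CPM above all control male ASC1 libraries, and control female ASC2 and ovariectomized female ASC2 each fall into a high and a low set.

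The fitted log2 difference of Ngfr was 3.85 ± 0.87 (SE) for castrated over control male ASC1 and -1.63 ± 1.02 for ASC2. For ovariectomized over control female it was -2.82 in ASC1, where 3 libraries with 4 reads give little precision, and 1.46 ± 0.72 in ASC2. Between control males and females it was -2.26 ± 0.81 in ASC2, and in ASC1 the means of 24.2 and 39.3 CPM differed by less than their SDs. Between the 2 cell fractions (ASC2 over ASC1) it was -5.59 ± 0.96 in castrated males, where the ranges did not overlap, 6.42 ± 1.84 in ovariectomized females, 2.14 ± 0.87 in control females and -0.12 ± 0.90 in control males.

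With 1 exception, the high libraries shared 2 features that the labels do not give. All 12 libraries with 3 or more reads of Tcf21 and Wt1 and fewer than 3 reads of the 4 Y-linked genes (Ddx3y, Eif2s3y, Uty and Kdm5d) had Ngfr at 249 to 612 CPM (median 468 CPM). They came from 4 groups: 5 of castrated male ASC1, 1 of control female ASC1, 2 of control female ASC2 and 4 of ovariectomized female ASC2. Of the 11 libraries with Tcf21 and Wt1 reads and 3 or more Y reads, 10 had Ngfr at 0 to 10.9 CPM, and the library labelled castrated male ASC1 N, with 4 Y reads and 65 Xist reads, had 360 CPM. The 35 libraries with fewer than 3 reads of Tcf21 and Wt1 stood at 0 to 57.5 CPM in those with fewer than 3 Y reads. They stood at 0 to 48.6 CPM in the 24 with 3 or more. These cutoffs are in reads and do not account for depth. Control female ASC1 A, at 139825 reads, held 3 reads of Tcf21 and Wt1 and 1 Y read (6.56 CPM), whereas the 4 Y reads of castrated male ASC1 N were 4.72 CPM. Tbx15, a transcription factor known from subcutaneous fat, was at 0 to 13.8 CPM in the 12 libraries and at 0 to 7.67 CPM in the 11. It was at 8.71 to 73.4 CPM in the 35. Low Tbx15 thus went with Tcf21 and Wt1 reads, at high and low Ngfr alike. The part of depot and of the sex of the cells in the Ngfr differences was not tested. All 8 libraries of castrated male ASC1 hold 0 to 4 Y reads and all 7 of control male ASC1 hold 5 to 77, so the level of Y reads cannot be told apart from castration there.

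**Figure D2:**
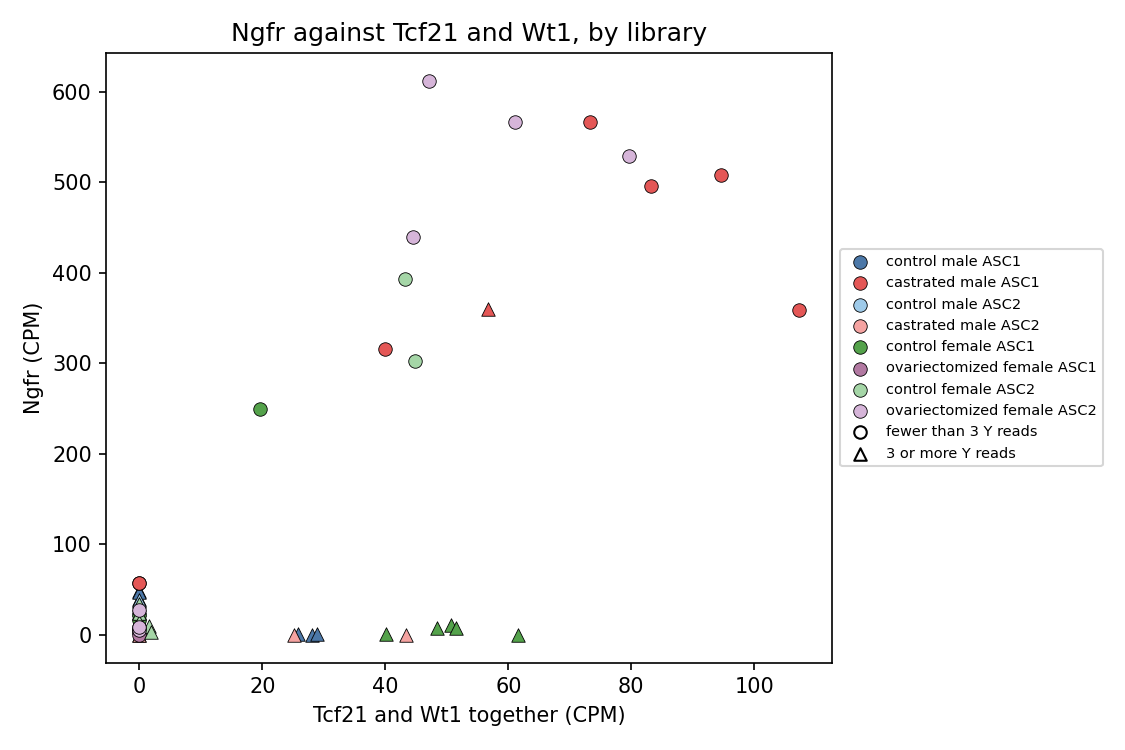
Ngfr (vertical axis, CPM) against the summed level of Tcf21 and Wt1 (horizontal axis, CPM) in each of the 58 libraries, coloured by group, with circles for fewer than 3 reads of 4 Y-linked genes and triangles for 3 or more. The 12 circles with Tcf21 and Wt1 reads lie at 249 to 612 CPM of Ngfr, whereas 10 of the 11 triangles with such reads lie at 10.9 CPM or lower.

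Without the 23 libraries that hold Tcf21 and Wt1 reads, the Ngfr difference in castrated over control male ASC1 was 0.46 ± 0.59, with 2 castrated libraries at 57.4 and 57.5 CPM and 4 controls at 32.3 to 48.6 CPM. The difference between ASC2 and ASC1 was then -2.56 ± 0.58 in castrated males and 2.15 ± 0.97 in ovariectomized females, that between control males and females in ASC2 was 0.15 ± 0.42, and that between the control female fractions was 0.08 ± 0.64. It was -1.17 ± 0.46 after castration in ASC2 and -2.46 ± 1.01 after ovariectomy in ASC1, between control males and females in ASC1 it was 1.16 ± 0.68, and between control male fractions it was -0.93 ± 0.44. After ovariectomy in ASC2 the direction turned, to -0.39 ± 0.57 without these libraries and -0.27 ± 0.93 without those against the sex label. Without the 26 libraries that went against the sex label, the difference between control males and females in ASC2 was -4.31 ± 1.12. In ASC1 it was -6.38 ± 1.84, and between ASC2 and ASC1 in control males it was 4.22 ± 1.92. The ASC2 libraries kept were male A to D, without Tcf21 and Wt1 reads, and female C and D, with them. In ASC1 they were male B to D and female A, with such reads, and female E and F, without. Sex in ASC2, and fraction in control males, cannot be told apart from these reads there. In bulk samples, fewer cells with Ngfr and less Ngfr RNA per cell cannot be told apart.

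Ngfr is widely used as a marker of Schwann cells, so their markers were examined beside it. The 10 Schwann cell markers summed to 9.88 to 28.0 CPM in the 12 libraries with high Ngfr and to 3.85 to 115 CPM in the others. The defining gene Sox10 had 0 to 6 reads in any group of libraries. The highest sums, 74.3 to 115 CPM, were those of ovariectomized female ASC1, where Sox10 was at 0, S100b, which adipocytes also express, made up most of the sum and Ngfr was at 0 to 6.19 CPM. The 8 perineurial and endoneurial markers summed to 182 to 273 CPM in the 12 libraries and 22.9 to 267 CPM in the others.

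The genes most like Ngfr over the 58 libraries, of 10541 compared by Pearson correlation of log2(CPM + 1), were Gm12248 (r = 0.86), E330013P04Rik (0.85), Pgr (0.83), 1600027J07Rik (0.82) and Greb1 (0.80). After the group means were subtracted they were E330013P04Rik (0.84), Pgr (0.80), Gm12248 (0.79), Thbs2 (0.78) and Greb1 (0.75). Pgr encodes the progesterone receptor, Greb1 was named for its regulation by estrogen in breast cancer and Thbs2 encodes the matrix protein thrombospondin-2. The libraries differ in depth and fall into the sets described above, which all these genes share. In the 12 libraries with Tcf21 and Wt1 reads and fewer than 3 Y reads, Pgr was at 13.1 to 66.2 CPM and E330013P04Rik at 105 to 229 CPM. In the other 46 they were at 0 to 42.5 and 0 to 188 CPM. The 42.5 CPM of Pgr was that of castrated male ASC1 N, whose Ngfr was at 360 CPM. Of the other genes of the list, Ntrk2 (r = -0.12) and Gfra1 (r = 0.06) did not follow Ngfr.

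Of the 7 other genes, 5 had 5 or more reads in more than 3 libraries and were tested among 12464 genes (Ntrk2, Bdnf, Ntf3, Gfra1 and Ret). Ntrk3 and Gdnf were not tested, with 39 and 36 reads in all, in 19 libraries each and at most 8.57 and 8.71 CPM in any library. Ntrk3 encodes TrkC and Gdnf the ligand of the GFRA1 and RET complex, and at this depth no group difference in either was detectable.

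Ntrk2, which encodes the BDNF receptor TrkB, rose after ovariectomy in ASC1 and fell after gonadectomy in ASC2 of both sexes. In ovariectomized female ASC1 it stood at 194, 326 and 167 CPM (229 ± 84.9, n = 3), and in control female ASC1 it ranged from 6.01 to 33.9 CPM with a median of 11.9 CPM (13.8 ± 8.98, n = 8). The groups did not overlap, and the log2 difference was 4.01 ± 0.38 (adjusted p = 1.47e-12, edgeR quasi-likelihood test).

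In castrated male ASC2, Ntrk2 ranged from 4.79 to 27.2 CPM with a median of 8.09 CPM, and in control male ASC2 from 29.9 to 70.0 CPM with a median of 37.2 CPM. Again the groups did not overlap, and the fall was -1.94 ± 0.33 on the log2 scale (adjusted p = 7.65e-05, edgeR). In ovariectomized female ASC2, Ntrk2 ranged from 0 to 29.3 CPM (median 18.9 CPM) against 20.4 to 80.8 CPM (median 43.8 CPM) in controls, a difference of -1.19 ± 0.31 (adjusted p = 0.0245, edgeR), with some overlap.

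Control ASC2 carried more Ntrk2 than control ASC1. In control males the levels were 29.9 to 70.0 CPM in ASC2 and 5.69 to 33.3 CPM in ASC1 (log2 difference 1.13 ± 0.32, adjusted p = 0.0129, edgeR), and in control females 20.4 to 80.8 and 6.01 to 33.9 CPM (1.73 ± 0.33, adjusted p = 0.000208). In castrated males both fractions were low, at 5.11 to 17.0 CPM in ASC1, and the difference of 0.13 ± 0.39 did not pass the test (adjusted p = 0.902). In ovariectomized females the order was turned, with ASC2 lower by 3.47 ± 0.37 on the log2 scale (adjusted p = 4.54e-11, edgeR).

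Without the libraries with Tcf21 and Wt1 reads, the Ntrk2 change after castration in ASC2 and both changes that involve ovariectomized female ASC1 still passed the test. The difference after ovariectomy in ASC2 was then -1.45 ± 0.48 (adjusted p = 0.185) and that between control male fractions 1.34 ± 0.42 (adjusted p = 0.0543). Without the libraries against the sex label, the differences between control fractions were 0.73 ± 0.45 in males (adjusted p = 0.335) and 2.25 ± 0.60 in females (adjusted p = 0.0677), and that after ovariectomy in ASC2 was -1.17 ± 0.43 (adjusted p = 0.707, edgeR).

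Ntf3, the gene of neurotrophin-3, shared with Ntrk2 its high level in ovariectomized female ASC1. There it stood at 83.4, 45.9 and 105 CPM (78.2 ± 30.0, n = 3), and in control female ASC1 at 0 to 6.23 CPM (2.79 ± 2.69, n = 8). The log2 difference was 4.59 ± 0.67 (adjusted p = 3.29e-07, edgeR), with no overlap. These 3 libraries also differ from all others in the fibroblast and mural cell genes given above, and they held few detected genes for their depth. The part of cell makeup and of library quality in the rise of Ntrk2 and Ntf3 was not tested.

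In ASC2, Ntf3 was found mainly in control females. It stood at 0 to 19.0 CPM in control female ASC2 (median 2.83 CPM), with reads in 7 of 8 libraries. It was at 0 to 1.57 CPM in control male ASC2 and 0 to 1.92 CPM in ovariectomized female ASC2, each with reads in 2 of 8 libraries, and at 0 in all 8 libraries of castrated male ASC2, which allows up to 3 reads in the group.

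Accordingly, Ntf3 was lower in control male than control female ASC2 (log2 difference -3.53 ± 0.78, adjusted p = 0.00300, edgeR) and fell after ovariectomy in ASC2 (-2.95 ± 0.78, adjusted p = 0.0265). In control males it was lower in ASC2 than in ASC1, where all 7 libraries had reads at 1.42 to 12.9 CPM (-3.80 ± 0.78, adjusted p = 0.000554, edgeR). In castrated male ASC1 the mean of 2.10 CPM was at least 3.88-fold higher than in castrated male ASC2, counted against a floor of 3 reads over that group (adjusted p = 0.0148, edgeR). Between the fractions of ovariectomized females it differed by -6.75 ± 0.79 (adjusted p = 1.40e-09).

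These Ntf3 levels rest on 201 reads in 32 libraries. Without the libraries with Tcf21 and Wt1 reads, 3 of the ASC2 differences no longer passed. After ovariectomy, where ovariectomized female ASC2 was then at 0 CPM, the adjusted p was 0.168 (edgeR). Between control male fractions the value was -2.94 ± 0.95 (adjusted p = 0.0687), and between castrated fractions the adjusted p was 0.601 (edgeR). The difference after ovariectomy in ASC2 also missed the threshold without the libraries against the sex label (-2.62 ± 0.89, adjusted p = 0.702).

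**Figure D3:**
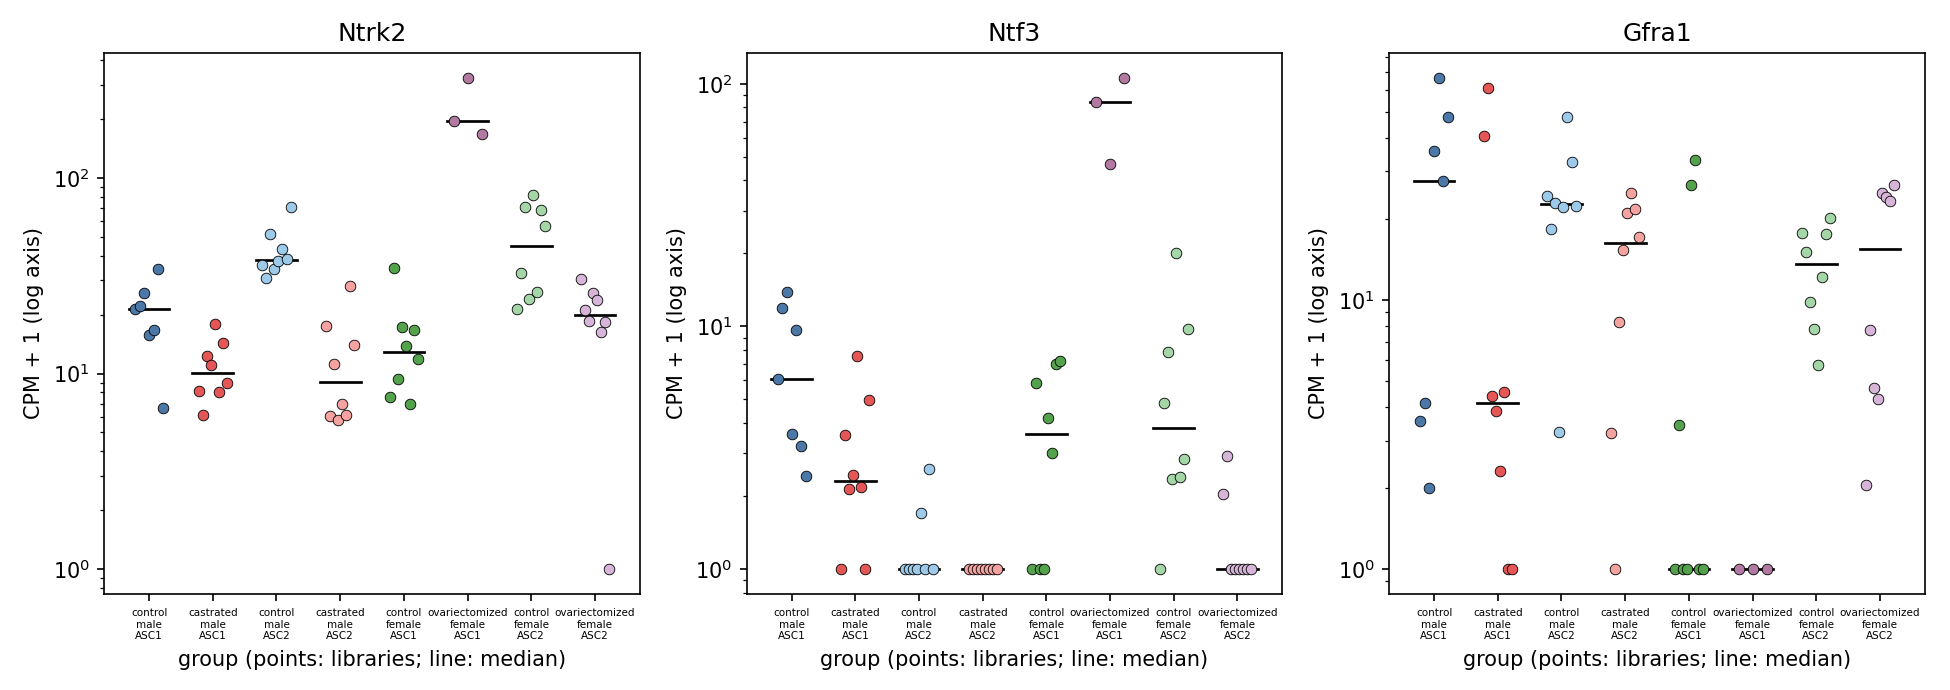
Ntrk2, Ntf3 and Gfra1 as CPM + 1 (vertical axes, log scale) in each library (points) of the 8 groups (horizontal axes), with the group median as a line. Ovariectomized female ASC1 stands above every other library for Ntrk2 (167 to 326 CPM) and Ntf3 (45.9 to 105 CPM) and is at 0 for Gfra1, and Gfra1 is split within the other ASC1 groups.

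Gfra1, the coreceptor for GDNF, was also split within groups, and was lower in most libraries with Tcf21 and Wt1 reads. Ngfr was likewise lower in such libraries of control male ASC1 (0 to 0.995 CPM against 32.3 to 48.6 CPM), whereas it was higher in those of castrated male ASC1 (315 to 567 CPM against 57.4 and 57.5 CPM). In control male ASC1, Gfra1 stood at 0.995 to 3.13 CPM in the 3 libraries with Tcf21 and Wt1 reads and at 26.7 to 66.0 CPM in the 4 without. In castrated male ASC1 the same split gave 0 to 3.54 CPM in 6 libraries and 39.5 and 60.0 CPM in 2, and in control female ASC1 0 to 2.42 CPM in 6 and 25.7 and 32.1 CPM in 2. The 2 sets did not overlap in any of these groups.

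The ASC2 libraries were split alike in castrated males (0 to 2.19 CPM in 2 libraries and 7.26 to 23.9 CPM in 6) and ovariectomized females (1.05 to 6.72 CPM in 4 and 22.3 to 25.7 CPM in 4). In control female ASC2 the sets overlapped (6.79 to 8.85 CPM in 2 libraries and 4.75 to 19.1 CPM in 6). Y reads did not go with this split, since both sets held libraries with and without them.

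No comparison between groups passed the test for Gfra1, and among comparisons with reads in both groups its widest differences were 1.61 ± 0.76 between control males and females in ASC1 (adjusted p = 0.571) and 0.92 ± 0.70 in ASC2 (adjusted p = 0.491, edgeR). Ovariectomized female ASC1 had no Gfra1 read, so the control female ASC1 mean of 7.52 CPM was at least 3.14-fold higher than its floor of 3 reads (adjusted p = 0.129). Without the libraries with Tcf21 and Wt1 reads, control female ASC1 kept 2 libraries, at 25.7 and 32.1 CPM, and the adjusted p for this comparison was 4.24e-05 (edgeR). For ovariectomized ASC2 (13.7 CPM, at least 5.74-fold higher) it was 0.0849 with all libraries in edgeR and 5.08e-05 without those with Tcf21 and Wt1 reads, and DESeq2 (adjusted p = 0.0239) or a fit of the 2 groups alone (adjusted p = 0.0335) also passed the threshold.

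Bdnf and Ret were close to the limit of detection. Bdnf, the gene of brain-derived neurotrophic factor, had 97 reads in 38 libraries and at most 11.5 CPM, with group means from 0 CPM in ovariectomized female ASC1 to 4.12 ± 2.15 CPM in ovariectomized female ASC2, where all 8 libraries had reads. Ret, the kinase activated by GDNF, had 102 reads in 36 libraries and at most 17.1 CPM, with group means of 1.57 to 5.31 CPM. Neither passed the test in any of the 10 comparisons, and changes of 2-fold were not detectable at this depth, where the SE of their log2 differences was 0.705 or more.

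**Figure D4:**
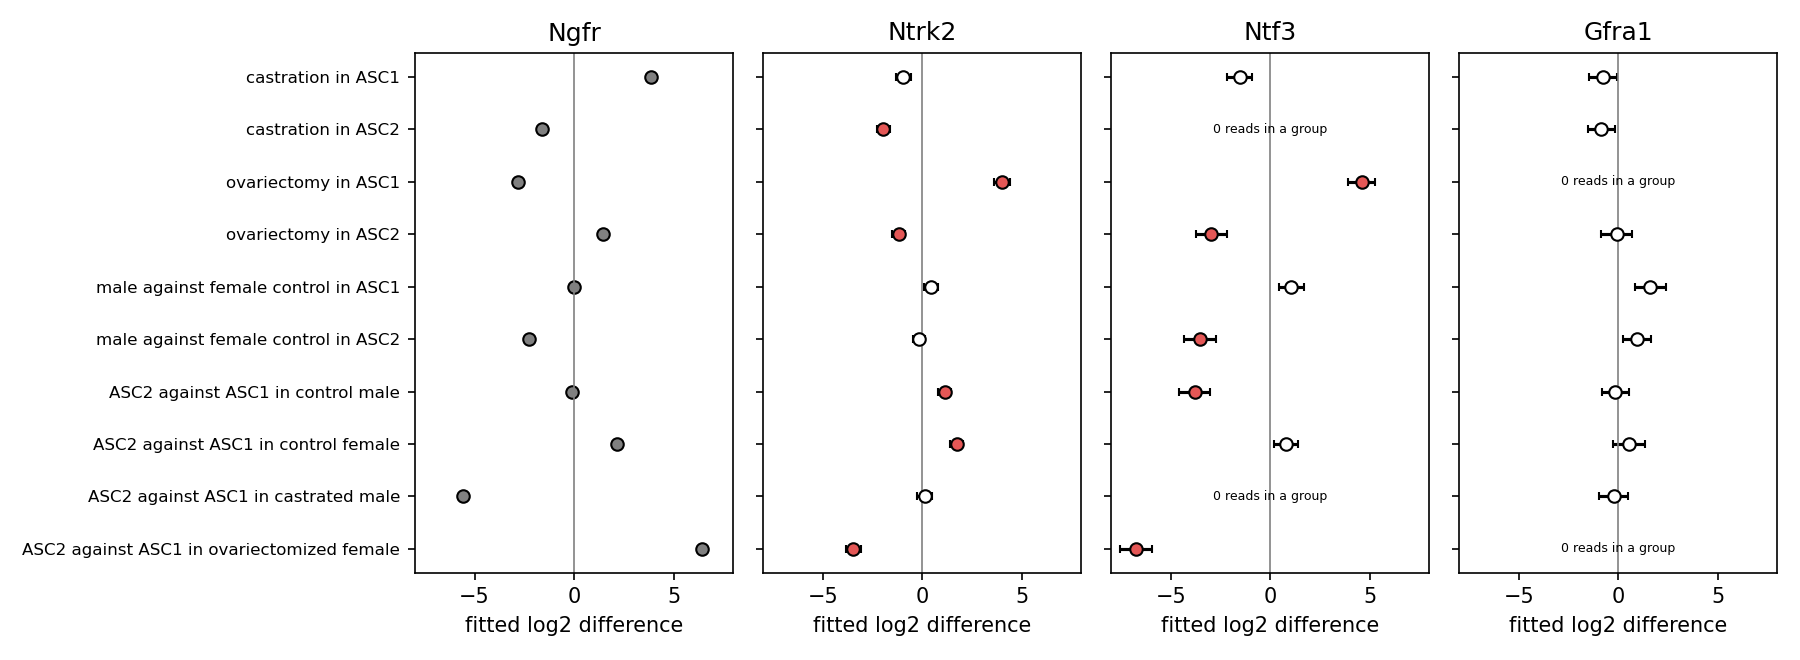
Fitted log2 differences (horizontal axes) of Ngfr, Ntrk2, Ntf3 and Gfra1 in the 10 comparisons (vertical axis), first group over second, with the SE as bars except for Ngfr, which was not tested and is grey. Red marks an adjusted p below 0.05, and comparisons with a group at 0 reads carry no point; the rises of Ntrk2 (4.01) and Ntf3 (4.59) after ovariectomy in ASC1 are the only rises past the threshold after gonadectomy among the tested genes.

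Counted over the 5 genes tested, after castration none passed in ASC1 (2.36% of all genes did; Ntrk2 and Ntf3 had an unadjusted p below 0.05, and DESeq2 called 0) and 1 fell in ASC2 (6.96% of all genes passed). After ovariectomy 2 rose in ASC1 (34.8% passed) and 2 fell in ASC2 (2.09% passed). Between control males and females none passed in ASC1 (0.289% passed; Gfra1 had an unadjusted p below 0.05, and DESeq2 called 0) and 1 was lower in males in ASC2 (6.5% passed). Between ASC2 and ASC1, 1 was higher and 1 lower in control males (12.2% passed), 1 higher in control females (6.11% passed), 1 lower in castrated males (9.09% passed) and 2 lower in ovariectomized females (35.4% passed). In the 2 comparisons with ovariectomized female ASC1 over 34% of all genes passed and the median of all genes was shifted by -0.34 and 0.37 (log2), so a call there says less than elsewhere.

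A list of 50 other genes of the signaling was also followed, from which 36 were tested, among them 3 of 5 GDNF family coreceptors, 8 of 9 p75 adaptors and effectors, 11 of 12 Trk and Ret adaptors and 7 of 8 processing and shedding proteases. The share that passed was near that of all genes in most comparisons. It was 1 of 36 after castration in ASC1, 4 in ASC2, 14 after ovariectomy in ASC1 and 0 in ASC2. It was 0 and 3 between control males and females in ASC1 and ASC2, and 6, 4, 5 and 12 between ASC2 and ASC1 in control males, control females, castrated males and ovariectomized females. Where the count was 0, 8 genes after ovariectomy in ASC2 and 1 between control sexes in ASC1 had an unadjusted p below 0.05, and DESeq2 called 0 in both.

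**Figure D5:**
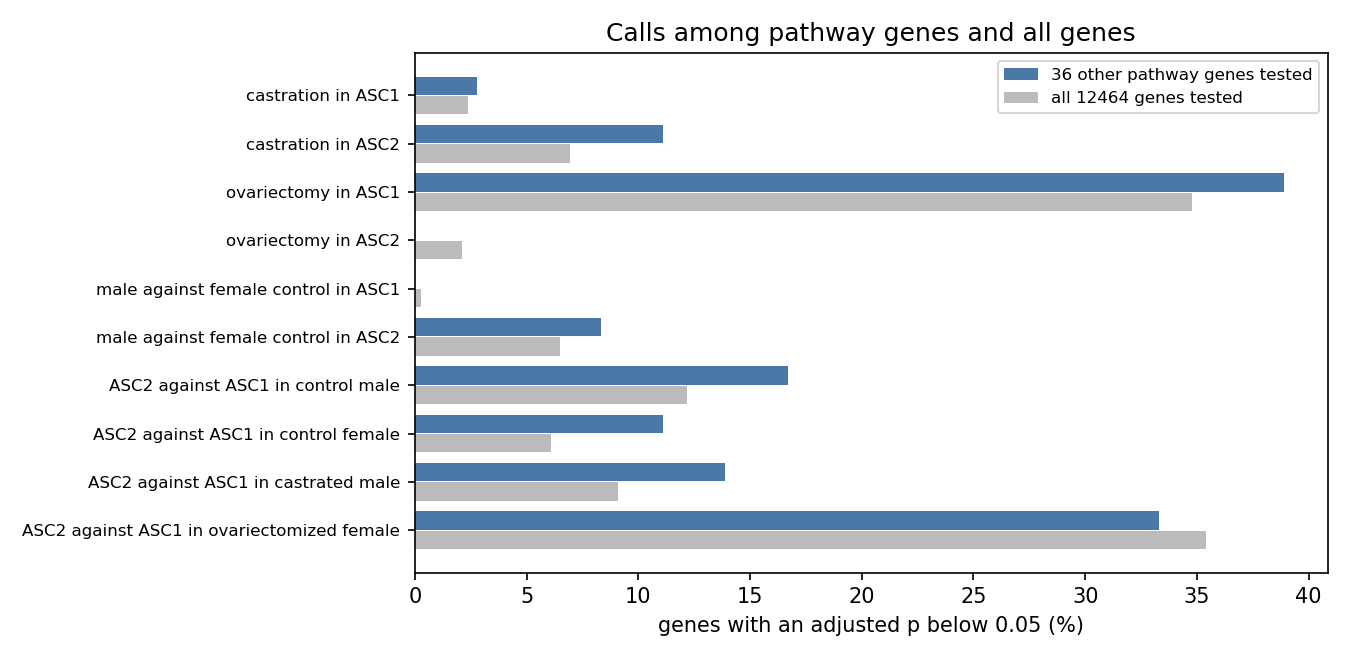
Percent of genes with an adjusted p below 0.05 (horizontal axis) in the 10 comparisons (vertical axis), among the 36 other pathway genes tested (blue) and all genes tested (grey). The 2 bars are close in most comparisons, at 38.9% and 34.8% after ovariectomy in ASC1 and 2.78% and 2.36% after castration in ASC1.

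Ntf5, the gene of neurotrophin-4, had 23 reads in all and was not tested. Sort1, the gene of sortilin, the partner of p75NTR, was at a mean of 2.95 to 14.6 CPM and passed only between the fractions of ovariectomized females (-2.05 ± 0.73, adjusted p = 0.0244).

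Of the other receptors and coreceptors, Ncam1, an alternative GDNF receptor with GFRA1, fell after castration in ASC2 (-1.25 ± 0.41, adjusted p = 0.0493) and was lower in ASC2 than in ASC1 of castrated males (-1.46 ± 0.41, adjusted p = 0.0138, edgeR). It fell to 2.29, 0 and 12.4 CPM in ovariectomized female ASC1 from 116 to 190 CPM in control female ASC1 (-5.38 ± 1.03, adjusted p = 3.71e-05). Nradd, a death-domain protein related to p75NTR, fell there to 13.7, 0 and 6.19 CPM from 39.4 to 77.1 CPM (-2.67 ± 0.42, adjusted p = 1.11e-06). Lingo1, a coreceptor of p75NTR, had no read in ovariectomized female ASC1, and the control mean of 6.87 CPM was at least 2.87-fold higher (adjusted p = 0.0173). Sorcs2, a sortilin relative, fell after castration in ASC2 (-3.18 ± 0.88, adjusted p = 0.0185) and was lower in ASC2 than in ASC1 of control females (-2.74 ± 0.74, adjusted p = 0.0131), on 27 reads or fewer in any of these groups.

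Between the fractions of ovariectomized females, Ncam1 (5.60 ± 1.02, adjusted p = 1.62e-05), Nradd (2.70 ± 0.42, adjusted p = 8.33e-07) and Bex3 (2.62 ± 0.34, adjusted p = 1.14e-08) were higher in ASC2, as was Lingo1, by at least 4.27-fold (adjusted p = 0.00259, edgeR).

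Of the adaptors, Bex3, a p75NTR-associated protein also known as Nade, fell after ovariectomy in ASC1, to 16.0, 22.9 and 37.2 CPM from 82.2 to 168 CPM (-2.45 ± 0.34, adjusted p = 6.88e-08, edgeR). Plcg1, the phospholipase recruited by Trk receptors, fell there by 2.00 ± 0.59 (adjusted p = 0.00630), and Ripk2, a kinase that binds p75NTR, had no read, with a control mean at least 1.68-fold higher (adjusted p = 0.0473). Zfp110, a p75NTR-interacting zinc finger protein, was higher in control male ASC2 (40.5 ± 24.6 CPM) than in control female ASC2 (1.01 ± 0.28, adjusted p = 0.0179) and control male ASC1 (1.09 ± 0.29, adjusted p = 0.00875, edgeR). Maged1, another p75NTR partner, was higher by 0.40 ± 0.12 in control male than control female ASC2 (adjusted p = 0.0348). Dok5, an adaptor of Trk and Ret kinases, was lower in ASC2 than in ASC1 of control males (-1.06 ± 0.37, adjusted p = 0.0475) and control females (-1.18 ± 0.36, adjusted p = 0.0327), its relative Dok4 was higher in ASC2 of control males (1.48 ± 0.52, adjusted p = 0.0483), and Frs2 was lower in ASC2 of castrated males (-1.01 ± 0.29, adjusted p = 0.0154).

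Among the proteases, Plat, the tissue plasminogen activator, which starts the plasmin cascade that matures neurotrophins outside the cell, was at 475 to 853 CPM in control male ASC2. It was lower in castrated male ASC2, at 361 to 494 CPM (-0.76 ± 0.16, adjusted p = 0.00105), in control female ASC2 (control male over female 0.60 ± 0.16, adjusted p = 0.0104) and in control male ASC1 (ASC2 over ASC1 0.80 ± 0.16, adjusted p = 0.000410, edgeR). Between the castrated fractions it differed by 0.50 ± 0.16 (adjusted p = 0.0326), and without the libraries with Tcf21 and Wt1 reads by -0.0097 ± 0.25. The difference between control male fractions was then 0.56 ± 0.19 (adjusted p = 0.0866, edgeR). Furin, which cleaves neurotrophin precursors, was lower in ASC2 than in ASC1 of control females, at 34.8 to 50.2 and 54.1 to 82.2 CPM with no overlap (-0.59 ± 0.17, adjusted p = 0.0182, edgeR).

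Several of these differences rested on the doubtful libraries. Without those with Tcf21 and Wt1 reads, the adjusted p of edgeR was 0.586 and 0.580 for Dok5 between control male and female fractions, 0.236 for Dok4, 0.774 for Frs2, 0.481 for Furin, 0.147 for Ncam1 between castrated fractions, 0.117 and 0.0608 for both Zfp110 differences, 0.103 for Maged1, and 0.223 for Plcg1 and 0.0624 for Ripk2 after ovariectomy in ASC1. Without those against the sex label it was 0.266 for Ncam1 after castration in ASC2 and 0.324 for Plat between control males and females in ASC2. Without the library labelled L of ovariectomized female ASC1 it was 0.886 for Sort1 (-0.33), 0.324 for Plcg1, 0.280 for Ripk2, and 0.188 after ovariectomy and 0.0766 between fractions for Lingo1.

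The 2 fractions were compared in their response by testing the difference of effects, ASC2 minus ASC1. For castration, none of the 5 genes tested and 2 of the 36 other genes passed (2.41% of all genes did). At an unadjusted p below 0.05 the 5 also gave 0, and DESeq2 called 0 of them. For ovariectomy, Ntrk2 (-5.20 ± 0.50, adjusted p = 2.12e-12) and Ntf3 (-7.54 ± 1.03, adjusted p = 6.75e-08) and 15 of 36 passed (34.8% of all genes did, edgeR). For control males over females, Ntf3 passed (-4.59 ± 1.00, adjusted p = 0.0384; 0.128% of all genes passed), DESeq2 called 0 of the 5 and gave Ntf3 no adjusted p, and 0 of 36 passed, with 8 at an unadjusted p below 0.05 and 0 called by DESeq2. The fitted value for Ngfr, given with no test, was -5.48 ± 1.32 for castration.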

How the data were processed

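The authors sorted the cells, built Smart-seq3 libraries, trimmed the reads, checked them with FastQC 0.11.9, aligned them with STAR 2.7.10a for quality control and quantified them with Salmon 1.9.0 on mouse transcripts (GRCm39). Reads with and without molecular identifiers were added, and libraries with few detected genes were left out by the authors. The deposited values are estimated counts per gene, not normalized, of which 15.0% of those above 0 were not whole; they were rounded here. Because identifiers were not used to collapse all reads, ranges and floors cover counting error only.

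Groups came from the labels. The 12464 of 56953 genes that reached 5 reads in over 3 libraries were fitted with edgeR 4.0.16 (R 4.3.3) by the quasi-likelihood method, with TMM factors and 8 group coefficients, on all 58 libraries, and p-values were adjusted by Benjamini-Hochberg over all genes tested. CPM are relative to the library's total over the tested genes, scaled by TMM. The SE is the log2 difference divided by the square root of its F statistic. A fold against a group without reads uses a floor of 3 reads over that group, and of such a gene no fitted fold is given. The script was tested on simulated data. Alternatives were other scalings and filters, DESeq2 1.42.0, only the 2 groups compared, a replicate block and fits without doubtful libraries.

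The genes and lists were chosen with earlier results of these data known. Named beyond the 8 genes were pathway genes past an adjusted p of 0.05, at most the 6 widest per comparison, with Ntf5 and Sort1 always, the 5 genes most like Ngfr with a mean of at least 5 CPM in each of 2 rankings, and defining markers. Gene names came from a GRCm38 table matched by gene ID (52029 of 56953), so names may lag behind the counting annotation. No 2 libraries of a group agreed within sampling noise. Some genes of the lists were counted but are not reported by name here.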

Additional observations from a re-analysis of the deposited data

Results flagged for a closer look

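Of 41 pairs of a gene and a group with 4 to 10 libraries, 6 held a library whose distance from the nearest of the others was a large part of the group's range. They were Ngfr in control female ASC1 (library labelled A at 249 CPM, next 22.0 CPM), Ntrk2 in control female ASC1 (B at 33.9 CPM, next 16.3 CPM), Ntf3 in control female ASC2 (E at 19.0 CPM, next 8.80 CPM) and control male ASC2 (G at 1.57 CPM, next 0.706 CPM), and Ret in castrated male ASC2 (I at 4.38 CPM, next 2.01 CPM) and ovariectomized female ASC2 (P at 17.1 CPM, next 3.85 CPM). The Ntf3 and Ret values rest on 1 to 12 reads. The cutoff assumes normally distributed values, which CPM with many zeros are not, so the number of such pairs cannot be set against chance. Ngfr was also selected on these same values.

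The response differed between the fractions, by a test of the difference of effects (ASC2 minus ASC1, log2, edgeR), for 12 of the results named. After ovariectomy they were Ntrk2 (-5.20), Ntf3 (-7.54), Sorcs2 (4.34), Lingo1 (5.40, with a group at 0 reads), Nradd (2.92), Ncam1 (6.35), Maged1 (0.57), Bex3 (2.72), Plcg1 (2.21), Dok5 (2.27) and Furin (1.88). Between control males and females it was Ntf3 (-4.59). The 11 differences after ovariectomy all rest on the 3 libraries of ovariectomized female ASC1, which stand apart in their fibroblast genes and held few detected genes. The part of cell makeup and of library quality in these differences was not tested.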

How the results depend on the processing

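Of the settings tried, leaving out libraries changed the Ngfr differences most. Without those with Tcf21 and Wt1 reads, a choice made after seeing the data, the log2 differences were 0.46 for castration in ASC1, 0.15 between control males and females in ASC2, -2.56 between castrated fractions and 2.15 between ovariectomized fractions. Without those against the sex label they were -6.38 and -4.31 between control males and females in ASC1 and ASC2 and 4.22 between control male fractions. The control libraries kept there also differ in Tcf21 and Wt1 reads between the sexes and between the male fractions, as given above. Castrated male ASC1 then kept 1 library and was not fitted. Over all comparisons, 12 calls on Ntrk2, Bdnf, Ntf3, Gfra1 and Ret became 7 when only the 2 groups compared were fitted, and 20 differences of effects became 13 without libraries with Tcf21 and Wt1 reads and 12 to 21 without 1 library of ovariectomized female ASC1 (12 without L). The Ntf3 difference of effects between control sexes had an adjusted p of 0.322 without libraries with Tcf21 and Wt1 reads.

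Of the other 36 pathway genes, 1 was called after castration in ASC1, against 0 with filterByExpr, 0 with DESeq2, 2 with only the 2 groups and 0 without libraries with Tcf21 and Wt1 reads. After ovariectomy, 14 in ASC1 became 8 with only the 2 groups, 9 without libraries with Tcf21 and Wt1 reads and 7 (without L) to 12 without 1 library, and 0 in ASC2 became 1 with no filter and 1 without libraries with Tcf21 and Wt1 reads. Between control sexes in ASC2, 3 became 0 with only the 2 groups and 1 without libraries against the sex label. Between fractions, 6 in control males became 1 without libraries with Tcf21 and Wt1 reads, 4 in control females became 2 with filterByExpr, 0 without libraries against the sex label and 2 without those with Tcf21 and Wt1 reads, 5 in castrated males became 2 with no filter and 1 without libraries with Tcf21 and Wt1 reads, and 12 in ovariectomized females became 7 (without L) to 14 without 1 library. Plat between castrated fractions turned to -0.0097 without libraries with Tcf21 and Wt1 reads. By Spearman correlation, 2 of the 5 genes most like Ngfr stayed among the first 5. The causes were not tested.

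The letters in the labels were not used to pair libraries in the main fit. After group means were subtracted, same-letter libraries correlated at 0.053 to 0.19 between control male fractions. The range was -0.17 to 0.031 between castrated fractions and -0.15 to 0.28 between control males and females in ASC1, which cannot share a mouse. Such correlations cannot settle whether the 2 fractions of a letter come from the same mouse. With the letter as a replicate block, Ntrk2 between control male fractions was 1.23 (adjusted p = 0.00885, edgeR). Castrated or ovariectomized and control groups share no letters, so no block could be fitted there.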
